A study of Homo sapiens with 24 samples.

Results

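The class I phosphoinositide 3-kinase (PI3K) subunits are encoded by 9 genes, 4 for catalytic subunits (PIK3CA, PIK3CB, PIK3CD, PIK3CG) and 5 for regulatory subunits (PIK3R1, PIK3R2, PIK3R3, PIK3R5, PIK3R6). All 9 were found by Ensembl identifier among the 21386 genes counted. They were followed in 24 RNAseq libraries of A375, a human melanoma line, and A549, a human lung adenocarcinoma line, held at the G1/S boundary by a double thymidine block. In each line, shMCM7 cells, which carry a doxycycline (Dox)-inducible lentiviral shRNA against MCM7, and parental cells received either 1 μg/ml Dox over 72 hours or none (noDox), with 3 biological replicates per group. MCM7 is a subunit of the MCM helicase of the pre-replication complex. The shMCM7 cells were a puromycin-selected pool transduced at a multiplicity of infection of 1.4 and not a clone, and differences between shMCM7 and parental cells therefore include the vector and the selection. The labels and the study's RNAseq methods name the control cells of these libraries parental, and that name is kept. The study also made cells with a scrambled shRNA, and its figure of PI3K gene expression names these as the control.

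Class I PI3K phosphorylates the lipid PIP2 to PIP3 at the plasma membrane, which recruits AKT kinases. A class IA enzyme pairs 1 catalytic subunit, p110α (PIK3CA), p110β (PIK3CB) or p110δ (PIK3CD), with 1 regulatory subunit encoded by PIK3R1 (p85α and its shorter forms), PIK3R2 (p85β) or PIK3R3 (p55γ). The regulatory subunit stabilizes and restrains its partner and docks it on phosphorylated receptors and adaptors. The class IB enzyme pairs p110γ (PIK3CG) with p101 (PIK3R5) or p84 (PIK3R6), responds to G protein-coupled receptors and is best known from leukocytes, where p110δ is also abundant.

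The sequence targeted by the shRNA is shown because it fixes which transcript was meant to be depleted. In capitals are the bases that come from exon 7 of MCM7, and in lower case those from exon 8.
MCM7 target: CAGaggaggatttctacgaaa
The 21 bases match, without mismatch, the transcripts of 1 gene in GENCODE 29, MCM7, on the minus strand of chromosome 7. The first 3 bases lie at chr7:100097834-100097836 and the other 18 at chr7:100097728-100097745 (GRCh38), the 2 pieces of an exon junction in the coding transcript ENST00000354230.7, which has 14 exons. Matches to positions 2 to 8 of the antisense strand occurred in coding transcripts of 1114 of 19669 genes (5.66%). Among the 9 class I genes, only PIK3CG had such a match.

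The promoters of PIK3R2 and PIK3R3 are shown because these were the 2 members that were called down. RefSeq promoter sequences (GRCh38.p14, 250 bases before to 50 after the start) were found for 8 of the 9 genes, all but PIK3R6, with 20 entries in all. For PIK3R3 the entry nearest to the GENCODE start of the gene was taken. Capitals mark a GC box (GGGCGG) or a CCAAT box (CCAAT) on either strand.
PIK3R2, chr19:18152913-18153212, plus strand: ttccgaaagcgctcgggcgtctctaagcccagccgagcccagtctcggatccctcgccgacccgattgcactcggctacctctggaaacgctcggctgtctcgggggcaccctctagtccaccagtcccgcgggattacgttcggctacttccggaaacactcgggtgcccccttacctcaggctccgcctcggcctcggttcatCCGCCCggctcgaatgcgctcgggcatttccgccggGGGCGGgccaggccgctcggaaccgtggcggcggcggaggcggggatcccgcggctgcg
PIK3R3, chr1:46132987-46133286, minus strand: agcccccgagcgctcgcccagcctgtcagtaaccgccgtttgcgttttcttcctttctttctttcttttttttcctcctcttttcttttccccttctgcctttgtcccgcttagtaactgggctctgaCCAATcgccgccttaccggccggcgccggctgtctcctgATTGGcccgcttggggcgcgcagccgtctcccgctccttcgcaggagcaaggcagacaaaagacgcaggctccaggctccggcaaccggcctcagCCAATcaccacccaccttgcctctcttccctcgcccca
The 2 printed sequences shared no type of box, although other PIK3R3 entries hold GC boxes. The PIK3R2 promoter held 2 GC boxes and no CCAAT box, and the PIK3R3 promoter held 3 CCAAT boxes and no GC box. Of 35116 promoters of this length, 45.0% held GGGCGG and 34.6% held CCAAT. Neither sequence held an E2F motif (TTTGGCGC, TTTCGCGC, TTTGCCGC or TTTCCCGC, in 3.31% of all promoters), the cell cycle homology motif TTTGAA (15.2%) or the FOXO motif TGTTTAC (3.42%). The FOXO motif stood once in the PIK3CA promoter. Other PIK3R3 entries held TTTGAA, among them those that start 241 and 407 bases from the GENCODE start.

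The A375 libraries held 146656792 to 283721575 counts and the A549 libraries 17911338 to 23452823, so that 3 counts correspond, in CPM (a gene's count scaled by its library's effective total), to 0.0106 to 0.0205 in A375 and to 0.128 to 0.167 in A549. These limits cover counting error only. MCM7 stood at 76.4 to 77.2 CPM in the A375 shMCM7 libraries with Dox and at 342 to 370 CPM in the 6 parental libraries. Of the shMCM7 noDox libraries, replicates 2 and 3 had 353 and 359 CPM, but replicate 1 had 131 CPM. In A549, MCM7 went against the labels, with 95.2 CPM in the library labelled shMCM7 Dox 3, 99.7 CPM in shMCM7 noDox 2, 88.6 CPM in parental noDox 2 and 299 to 339 CPM in the other 9. SOX10 (501 to 677 CPM) and KRT8 (1828 to 2757 CPM) marked the melanoma and the epithelial line, respectively, whereas the pigment genes MLANA and TYR in A375 and the lung genes NKX2-1 and SFTPC in A549 stayed at or under 0.205 CPM. In the other line SOX10 had 0 counts, but KRT8 still had 60.6 to 93.9 CPM. Not every listed marker separated the lines. The melanocyte gene MITF had 26.7 to 45.1 CPM in A375 and 35.7 to 51.9 CPM in A549. Of 10 leukocyte markers, 3 had a mean of at least 1 CPM in the A375 groups (CD68 42.9 to 82.5, LYZ 9.23 to 19.9 and CORO1A 14.99 to 24.6 CPM) and 5 in the A549 groups, among them CD68 (34.9 to 59.2 CPM), ITGAM (4.86 to 8.23 CPM) and CORO1A (2.01 to 5.02 CPM). The defining markers PTPRC, CD3E and MS4A1 had at most 12, 8 and 0 counts in any library.

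PIK3R2 and PIK3R3 share exons with a gene counted beside them. AC007192.1, on the same strand, covers 87.2% of the PIK3R2 exon sequence and runs on into IFI30. In each of the 12 A375 libraries its count was 0.995 to 0.997 times the sum of PIK3R2 and IFI30 counts, and in A549 0.985 to 0.999 times. AL358075.4 covers 17.4% of the PIK3R3 exon sequence and had 0.278 to 0.355 times the PIK3R3 count in A375. On the opposite strand, KCNMB3 overlaps 35.8% of the PIK3CA exons and CLSTN1 overlaps 1.41% of those of PIK3CD. Whether counting used the strand is not given in the sources used here.

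In parental A375 cells, PIK3R2 was the most abundant class I transcript. The levels that follow are CPM per kilobase of annotated exon, which allows genes to be compared. PIK3R2 stood at 22.9 to 25.9 in the 6 parental libraries (median 24.5). PIK3CD (5.62 to 6.72) and PIK3CB (5.62 to 6.52) came next and overlapped each other. PIK3R3 (3.57 to 4.26) lay below them and above PIK3R1 (2.99 to 3.47), whose range overlapped that of PIK3CA (2.69 to 3.16). The order below PIK3R2 holds for this length only and changes with the longest transcript. PIK3R1 has 10767 bases of exon and a longest transcript of 7011, against 7410 and 5609 for PIK3R3. The class IB genes were far lower, with PIK3R6 at 0.0599 to 0.108, PIK3R5 at 0.00114 to 0.00576 and PIK3CG at 0.000671 to 0.00781. A375 cells thus carried mainly class IA transcripts, and among the regulatory genes mainly PIK3R2.

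**Figure D1:**
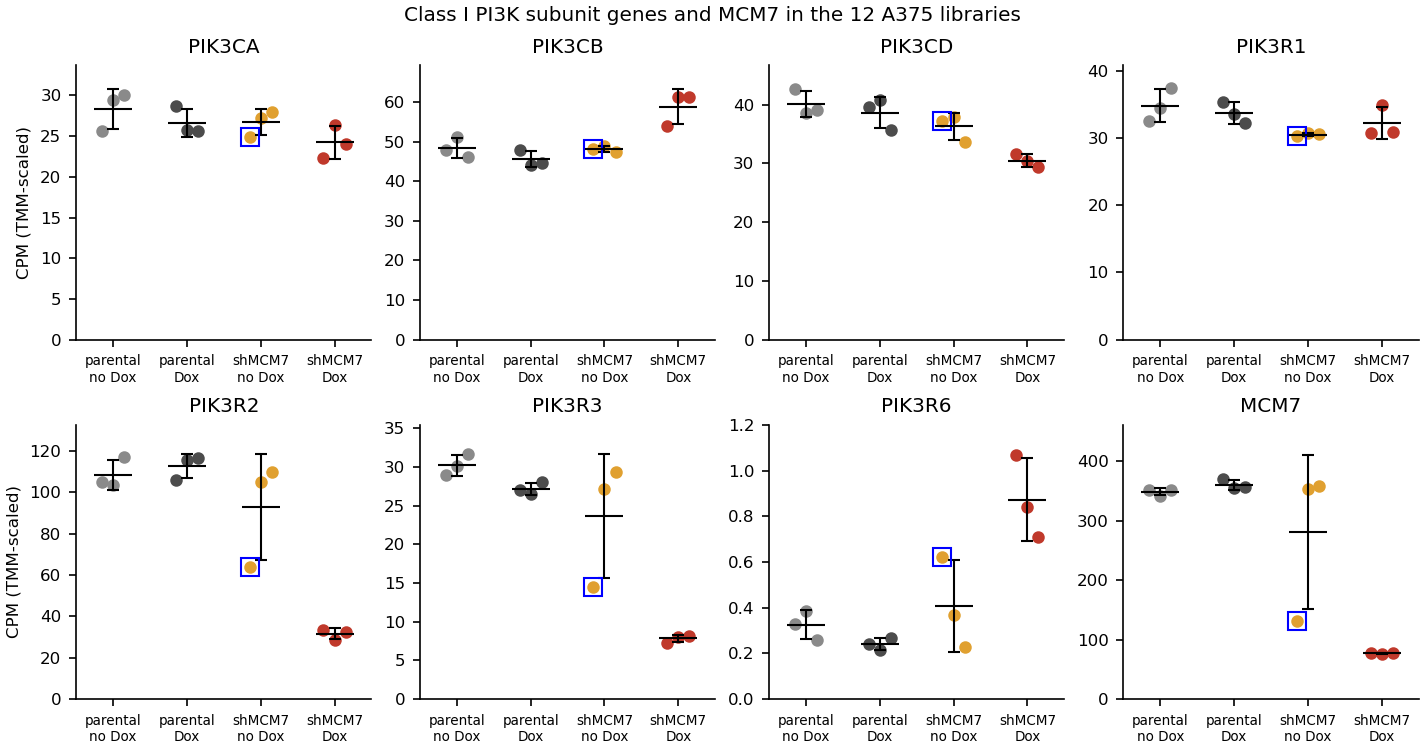
CPM (y axis, TMM-scaled, from 0) of 7 class I PI3K subunit genes and MCM7 in the 12 A375 libraries. Points are libraries, bars are mean ± SD (n = 3), and the blue square marks shMCM7 noDox replicate 1. PIK3R2 and PIK3R3 are lowest in the 3 shMCM7 Dox libraries and intermediate in the marked one, as is MCM7.

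To ask which subunits responded when the shRNA was induced, A375 shMCM7 cells with and without Dox were compared. PIK3R2 and PIK3R3 fell about equally, PIK3R6 rose from a low level, and the catalytic genes and PIK3R1 stayed within 1.5-fold. A gene was called at a change of at least 1.5-fold with p under 0.01 and a Benjamini-Hochberg FDR under 0.05 in edgeR's quasi-likelihood test. Of the 7 members that passed the filter on low counts, 2 were called down and 1 was called up, against 6.45% and 5.58% of the 16087 genes tested. PIK3CG and PIK3R5 did not pass the filter. Where groups are said below not to overlap, the share of all genes that do so was not counted. In this comparison 8288 of the 16087 genes had an unadjusted p under 0.05 in the edgeR test. The median log2 fold change was -0.14 over the 7 members and 0.0045 over all genes.

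PIK3R2 encodes p85β. It had 33.5, 28.5 and 32.6 CPM with Dox and 63.7, 105 and 110 CPM without. The groups did not overlap, and the lowest noDox library was replicate 1, in which MCM7 was also low. PIK3R2 fell by 1.56 on the log2 scale (SE 0.176, edgeR FDR = 0.000185). Without noDox replicate 1 it fell by 1.77 (SE 0.0763, edgeR FDR = 1.03e-05). AC007192.1, which counts the same reads together with those of IFI30, fell by 0.62 (SE 0.0739, edgeR FDR = 0.000239) and lost the call without noDox replicate 3 (-0.55). IFI30 itself had 82.3 to 89.0 CPM with Dox and 79.4 to 95.7 CPM without.

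PIK3R3 encodes p55γ, a form without the N-terminal SH3 and BH domains of p85. Its level was 7.24, 8.02 and 8.20 CPM with Dox and 14.5, 27.1 and 29.3 CPM without. Again every Dox library lay below every noDox library, and replicate 1 lay between them. PIK3R3 fell by 1.60 on the log2 scale (SE 0.218, edgeR FDR = 0.000463) and by 1.85 without noDox replicate 1 (SE 0.0805, edgeR FDR = 1.03e-05). The overlapping AL358075.4 fell by 1.40 (SE 0.220, edgeR FDR = 0.000983).

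PIK3R1, which encodes p85α, the regulatory subunit usually found most abundant in tissues, did not follow its relatives. It had 30.7, 35.0 and 30.9 CPM with Dox and 30.3, 30.7 and 30.6 CPM without. The log2 fold change was 0.08 (SE 0.0642, edgeR FDR = 0.368), and over all alternatives it lay between 0.01 and 0.11.

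PIK3R6, which encodes the p84 partner of p110γ, was the member called up. Its counts were 307, 155 and 167 with Dox (1.07, 0.839 and 0.711 CPM) and 138, 76 and 58 without (0.623, 0.369 and 0.227 CPM). The highest noDox value was that of replicate 1, and the groups did not overlap. PIK3R6 rose by 1.12 on the log2 scale (SE 0.317, edgeR FDR = 0.0186). It lost the call without Dox replicate 1 (0.94) or 2 (1.14) and without noDox replicate 2 (1.06) or 3 (0.82), with p over 0.01 in each and an FDR of up to 0.0602, and rose by 1.57 without noDox replicate 1. The summed level of the 10 leukocyte markers moved in the same direction, with 111 to 120 CPM in the shMCM7 Dox libraries and 81.0 to 95.8 CPM in the other A375 groups, most of it CD68 (77.0 to 82.5 CPM with Dox, 42.9 to 59.1 CPM otherwise), a lysosomal gene also made outside leukocytes. CORO1A had 21.4 to 24.6 CPM with Dox and 14.99 to 21.2 CPM otherwise, LYZ lay lower with Dox (9.23 to 12.1 CPM against 14.4 to 19.9 CPM), and PTPRC, the pan-leukocyte marker, stayed at or under 0.0582 CPM. The part of such cells in the PIK3R6 result was not tested.

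The 3 class IA catalytic genes moved little, and not in 1 direction. PIK3CB (p110β) had 53.9, 61.3 and 61.4 CPM with Dox against 48.1, 49.0 and 47.5 CPM without, a log2 fold change of 0.29 (SE 0.0622, edgeR FDR = 0.00517) that is under 1.5-fold. PIK3CD (p110δ) had 31.6, 30.4 and 29.3 CPM with Dox against 37.2, 38.0 and 33.7 CPM without, a log2 fold change of -0.26 (SE 0.0634, edgeR FDR = 0.01001), also under 1.5-fold. In both genes the groups did not overlap. PIK3CA (p110α) had 22.4, 26.4 and 24.0 CPM with Dox against 24.9, 27.3 and 28.0 CPM without, which overlapped, and a log2 fold change of -0.14 (SE 0.0761, edgeR FDR = 0.159).

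The class IB genes PIK3CG and PIK3R5 were close to the detection limit in A375. PIK3CG had 12, 9 and 8 counts in the shMCM7 Dox libraries and 3, 4 and 2 in the shMCM7 noDox libraries, and 1 to 12 counts in the parental libraries. PIK3R5 had 1 to 11 counts in the 12 libraries. No call can be made from these values. Tested without the filter, PIK3CG had a log2 fold change of 1.60 (edgeR FDR = 0.0418), which did not reach the p threshold.

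**Figure D2:**
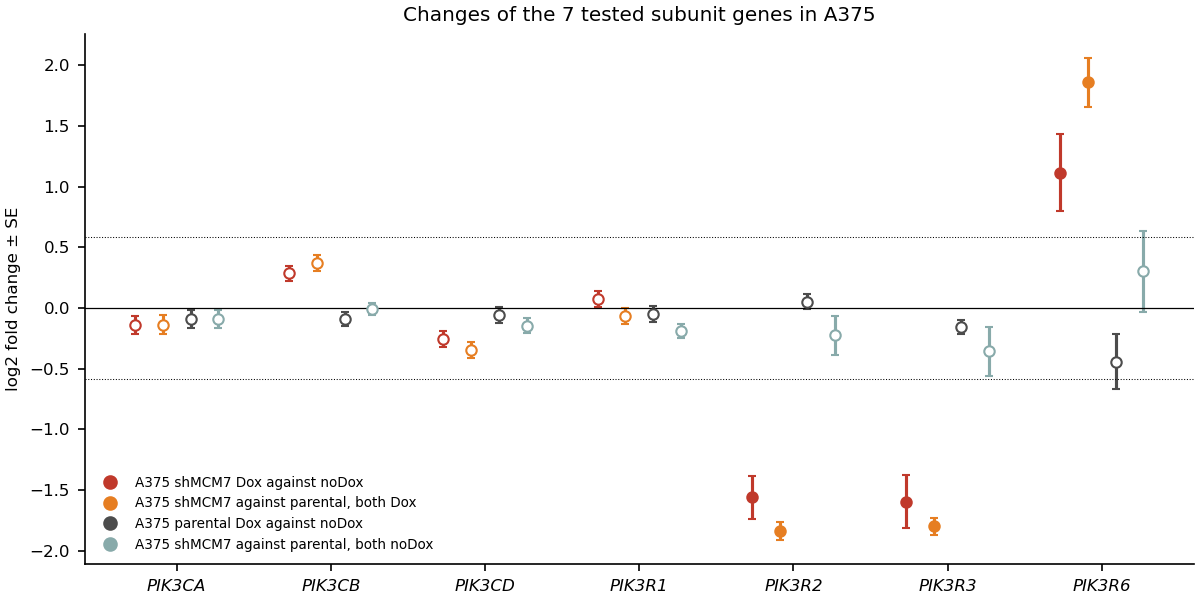
Log2 fold changes ± SE (y axis) of the 7 tested subunit genes in 4 A375 comparisons (colours), with called values as filled points and 1.5-fold marked by dotted lines. PIK3R2 and PIK3R3 lie between -1.84 and -1.56 and PIK3R6 at 1.12 and 1.86 in the comparisons that contain the shMCM7 Dox libraries, and no point is filled in the others.

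Parental cells were compared in the same way to ask what Dox does without the shRNA. Of 15993 genes 0 were called (0%), with 1121 at an unadjusted p under 0.05 and 2 called by DESeq2. An edgeR fit that blocked on the replicate number called 12 genes up and 0 down, with 1502 at such a p. Of the fits that left out a library, the one without Dox replicate 3 called 1 gene and the others 0, while the number at an unadjusted p under 0.05 was 573 without Dox replicate 2, 669 without noDox replicate 2, and 1687 without Dox replicate 1. None of the 7 tested members was called by either tool in the fits on all 6 libraries. PIK3R2 had 106, 116 and 116 CPM with Dox and 105, 104 and 117 CPM without, a log2 fold change of 0.05 (SE 0.0616). PIK3R3 had 27.0, 26.4 and 28.0 CPM with Dox against 28.9, 30.1 and 31.6 CPM without. These 2 groups did not overlap, yet the log2 fold change was only -0.16 (SE 0.0589, edgeR FDR = 0.629). For PIK3R6, which had 0.214 to 0.265 CPM with Dox and 0.260 to 0.386 CPM without, the log2 fold change was -0.44 (SE 0.228, edgeR FDR = 0.728).

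Whether Dox acted differently on shMCM7 than on parental A375 cells was tested directly. For PIK3R2 it was -1.61 (SE 0.208, edgeR FDR = 0.000109), for PIK3R3 -1.44 (SE 0.251, edgeR FDR = 0.000853) and for PIK3R6 1.55 (SE 0.428, edgeR FDR = 0.0146), all on the log2 scale and all called. The background was 6.17% of 16334 genes called lower and 4.37% called higher. These 3 calls were made in every alternative run. PIK3CB had a difference of 0.38 (SE 0.0851, edgeR FDR = 0.00471), under 1.5-fold. The differences of PIK3CD (-0.20), PIK3CA (-0.05) and PIK3R1 (0.12) had FDRs of 0.118, 0.767 and 0.333 in the same edgeR test.

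The shMCM7 and parental cells were also compared at the same Dox state. These comparisons share libraries with those above and are no independent evidence. With Dox, PIK3R2 fell by 1.84 (SE 0.0746, edgeR FDR = 1.08e-06) and PIK3R3 by 1.80 (SE 0.0694, edgeR FDR = 9.45e-07) on the log2 scale, and PIK3R6 rose by 1.86 (SE 0.202, edgeR FDR = 9.86e-05). Over all 16086 genes, 8.39% were called lower and 7.64% higher. PIK3CB (0.37, edgeR FDR = 0.00175) and PIK3CD (-0.35, edgeR FDR = 0.00237) again passed the FDR and stayed under 1.5-fold.

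Without Dox, 0 of the 7 tested members were called (by edgeR or DESeq2) between shMCM7 and parental A375 cells, against 0.478% of 16093 genes called lower and 1.17% called higher; PIK3R1, with -0.19 (SE 0.0583, edgeR FDR = 0.133), and PIK3CD, with -0.15 (SE 0.0620, edgeR FDR = 0.280), were the 2 members at an unadjusted p under 0.05. In this comparison the same-numbered libraries deviated together, and a fit that blocked on the number called 149 genes lower and 335 higher, instead of 77 and 189. Without the block, the genes called lower were 50 without shMCM7 noDox replicate 2, 39 without parental noDox replicate 2 and 40 without parental noDox replicate 3. The block brought PIK3R1 (-0.19, edgeR FDR = 0.00937), PIK3R3 (-0.41, edgeR FDR = 0.0205) and PIK3CD (-0.15, edgeR FDR = 0.0387) under an FDR of 0.05, all under 1.5-fold. Without shMCM7 noDox replicate 1, the log2 difference was -0.01 for PIK3R2 and -0.10 for PIK3R3, instead of -0.23 and -0.36. In that library PIK3R2 and PIK3R3 stood at 0.575 and 0.508 times their parental medians, MCM7 at 0.372 times and PIK3R6 at 2.37 times.

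Because the members changed unequally, the make-up of the family shifted. Shares were taken from CPM per kilobase of exon in each library. PIK3R2 made up 28.8%, 24.0% and 27.3% of the 9-gene total in the shMCM7 Dox libraries, against 41.8%, 51.7% and 53.5% without Dox and 49.8% to 55.3% in parental cells. PIK3CB made up 28.7% ± 1.75 with Dox and 15.1% ± 2.69 without (SD, n = 3 each). Its level rose only 1.22-fold, and its share also grows as PIK3R2 falls. In the shMCM7 Dox libraries, PIK3CB was above PIK3R2 in replicates 2 and 3 and below it in replicate 1.

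Among the regulatory transcripts, the share of PIK3R2 was 61.8% ± 3.33 with Dox and 76.6% ± 2.26 without (SD, n = 3 each). The difference of -14.8 percentage points separated the groups fully (exact permutation test, two-sided p = 0.1, the smallest that 3 against 3 allows), and was -16.1 without noDox replicate 1. Most other shares reached the same p in this test, among them those of PIK3CA, PIK3CG and PIK3R6 in the family total. The shares are built from the levels given above, so they are no separate evidence for the fall of PIK3R2. PIK3R1, with little change in level, went from 11.1% ± 3.15 to 26.6% ± 2.85 of the regulatory transcripts (SD, n = 3 each). PIK3R3 had 9.38% ± 0.80 with Dox and 11.7% ± 1.29 without (SD, n = 3 each). Among the catalytic transcripts, PIK3CB had 50.4% ± 1.96 with Dox and 41.8% ± 0.48 without, and PIK3CD 32.4% ± 2.33 and 39.0% ± 1.61 (SD, n = 3 each).

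The ratio of regulatory (PIK3R1, PIK3R2, PIK3R3) to catalytic (PIK3CA, PIK3CB, PIK3CD) class IA transcripts per length was above 1 in all A375 groups but one. It was 0.791, 0.692 and 0.746 in the shMCM7 Dox libraries, 1.29, 1.97 and 2.18 in the shMCM7 noDox libraries and 1.92 to 2.32 in the 6 parental libraries. By this measure every Dox-treated shMCM7 library was below 1 and every other library above it, with noDox replicate 1 closest. The position relative to 1 depends on the division by length, and without it noDox replicate 1 fell just under 1. The mean log2 ratio differed by -1.25 between shMCM7 cells with and without Dox (exact permutation test, two-sided p = 0.1, the smallest possible), and by -1.48 without noDox replicate 1. The summed catalytic level was 14.9 ± 0.60 CPM per kilobase with Dox and 14.7 ± 0.40 without (SD, n = 3 each). The regulatory sum was 11.2, 10.6 and 11.2 with Dox and 18.9, 29.7 and 31.1 without. The levels of messenger RNA do not give the numbers of protein subunits or dimers.

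**Figure D3:**
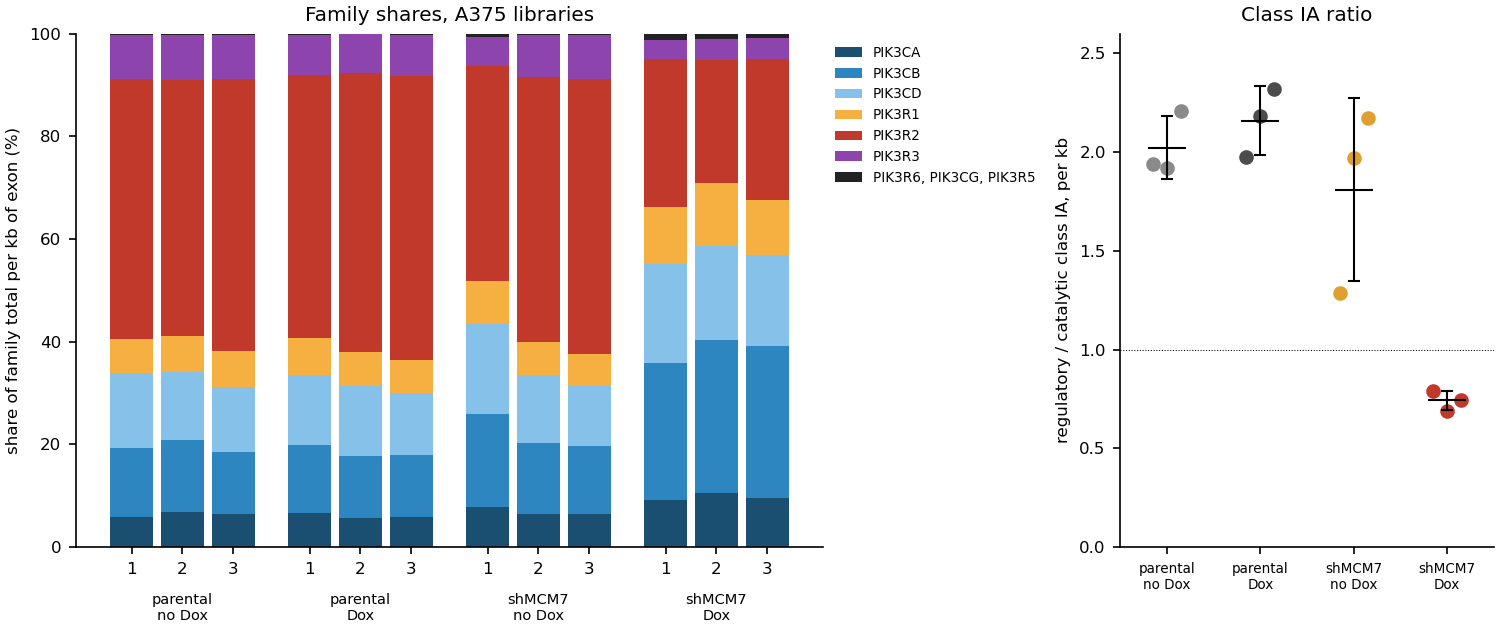
Left, share of each gene in the family total per kilobase of exon (%, y axis) for each A375 library (bars, replicates 1 to 3 by group). Right, ratio of regulatory to catalytic class IA transcripts per kilobase, with points for libraries and mean ± SD. The ratio lies under 1 in the 3 shMCM7 Dox libraries, at 0.692 to 0.791, and over 1 in the other 9.

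The genes around the enzyme were taken from 4 lists. Of 16 upstream receptors and adaptors, 4 were called up, 2 down and 10 were not called between A375 shMCM7 cells with and without Dox, which in each direction is to be read against the 5.58% and 6.45% of all genes. IRS1 and IRS2, the insulin receptor substrates that dock p85, both rose. IRS1 had 50.4 to 58.6 CPM with Dox and 33.7 to 34.4 CPM without (log2 fold change 0.66, SE 0.0641, edgeR FDR = 9.50e-05). IRS2 had 210 to 334 CPM with Dox and 119 to 174 CPM without (0.79, SE 0.175, edgeR FDR = 0.00568), and lost the call without Dox replicate 1 (0.57). PDGFRB, a receptor tyrosine kinase, rose by 0.84 (SE 0.141, edgeR FDR = 0.00144). KIT was called up at a very low level, 0.0837 to 0.204 CPM with Dox against 0.0274 to 0.0437 CPM without. It had 24, 27 and 48 counts with Dox and 7, 9 and 7 without. KIT thus passed the filter on low counts only through the Dox libraries, which favours a call upward. Its call is among the 4 and is not read as a result. ERBB2, a receptor that signals with ERBB3, fell by 0.59 (SE 0.0668, edgeR FDR = 0.000188), just over 1.5-fold. It lost the call without Dox replicate 1 (-0.56) or 2 (-0.56) or noDox replicate 2 (-0.58) or 3 (-0.55), each just under that fold. PIK3AP1 (BCAP), an adaptor that binds p85, fell by 0.78 (SE 0.158, edgeR FDR = 0.00377) from a low level of 2.96 to 3.99 CPM without Dox to 1.71 to 2.42 CPM with Dox.

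Of 10 lipid phosphatases and inhibitors, none was called in this comparison in the main edgeR fit. Some alternative fits, among them edgeR with DESeq2's size factors, called 1 of them up. Of the 10, 1 was also called up in the difference of the Dox effects, beside 4.37% of all genes. Between shMCM7 and parental cells with Dox it was 1 of 10 as well, beside 7.64%. INPP4B, which acts on PI(3,4)P2, had a log2 fold change of 0.44 (SE 0.0574, edgeR FDR = 0.000376). PIK3IP1, which inhibits the catalytic subunits, was at or under 0.166 CPM in every A375 library. Without noDox replicate 3 it was called up, with a log2 fold change of 1.26.

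Of 23 downstream kinases and effectors, GSK3B, a kinase inhibited by AKT, was the 1 called up and none was called down. It had 164, 176 and 182 CPM with Dox against 103 to 105 CPM without (log2 fold change 0.74, SE 0.0535, edgeR FDR = 3.73e-05). AKT1 had a log2 fold change of -0.16 (SE 0.0537, edgeR FDR = 0.0398) and AKT2 one of -0.00093 (SE 0.0563, edgeR FDR = 0.991). None of the 5 class II and class III genes was called. PIK3C3, the class III enzyme of autophagy and endosomes, had 62.3 to 65.9 CPM with Dox and 48.1 to 49.1 CPM without (log2 fold change 0.40, SE 0.0493, edgeR FDR = 0.000275). The median log2 fold changes of the 4 lists were 0.06, 0.07, 0.01 and -0.02, respectively, beside 0.0045 over all genes.

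The genes whose log2 CPM followed that of PIK3R2 most closely over the 12 A375 libraries were FBXO16, ZNF395, CDK16, ZBTB4 and CRISPLD1, with Pearson's r of 0.994 to 0.997 among 16334 genes. For PIK3R3 these were AL358075.4, AMACR, TP53BP2, C1QTNF3-AMACR and CRISPLD1, with r of 0.994 to 0.996. AL358075.4 shares exons with PIK3R3, and FBXO16 with ZNF395 and AMACR with C1QTNF3-AMACR overlap each other. PIK3R2 and PIK3R3 had r = 0.988 with each other, which ranked 13 for PIK3R2, and MCM7 ranked 20 for PIK3R2 and 7 for PIK3R3. The points share libraries in which the 3 shMCM7 Dox samples stood apart from the others, so that any gene that differs between these sets gives a high r. In the 12 A549 libraries, r was 0.893 to 0.994 for the PIK3R2 set and 0.813 to 0.974 for the PIK3R3 set. There the 3 libraries with low MCM7 stood apart, so that the same limit applies. MCM7 itself had r = 0.996 with PIK3R2 and 0.971 with PIK3R3 in A549.

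In A549, 6 of the 9 members passed the filter. By label, 0 of 13550 genes (0%) were called between shMCM7 cells with and without Dox, with 61 at an unadjusted p under 0.05 and 0 called by DESeq2. Between parental cells with and without Dox 0 of 13494 (0%) were called, with 1137 at an unadjusted p under 0.05 and 9 called by DESeq2. This count rested on parental noDox replicate 3, without which 300 genes were called up and 3800 had an unadjusted p under 0.05. Without parental Dox replicate 1, 2 or 3, 0 were called and 381, 296 and 364 had such a p. The fit without noDox replicate 3 kept noDox replicates 1 and 2, with MCM7 at 314 and 88.6 CPM. Its 300 genes are therefore not read as an effect of Dox. No member was called by either tool, nor by edgeR with any library left out. In 3 of the 4 labelled groups 1 library had low MCM7. Libraries with high MCM7 also differed within groups, with a chi-square statistic of their gene counts, divided by its degrees of freedom, of 30.8 between parental noDox 1 and 3 and 14.8 between shMCM7 Dox 1 and 2, against 1.95 to 3.48 among the parental Dox libraries. PIK3R2 had 31.5, 41.5 and 9.69 CPM in the libraries labelled shMCM7 Dox and 40.4, 8.76 and 39.0 CPM in those labelled shMCM7 noDox, a log2 fold change of -0.10 (SE 0.660, edgeR FDR = 1.00).

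The A549 libraries were therefore also described by their MCM7 level, 3 under 150 CPM and 9 over 250 CPM. Since this split rests on measured values and cuts across the labels, it was not tested, and the low libraries are not taken to be of 1 condition. Of 13785 genes, 19.2% had all 3 low-MCM7 libraries below the other 9 and 19.8% had them all above. Of the 6 members kept, 4 lay below (PIK3R2, PIK3R3, PIK3CD, PIK3CA), 1 above (PIK3R1) and 1 overlapped (PIK3CB). A change in these libraries was thus common among all genes.

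PIK3R2 had 9.69 (shMCM7 Dox 3), 8.76 (shMCM7 noDox 2) and 7.52 CPM (parental noDox 2) in the low-MCM7 libraries and 31.5 to 41.5 CPM in the other 9, with medians 4.45-fold apart. PIK3R3 had 1.88, 1.74 and 2.11 CPM in the same order, against 4.79 to 6.67 CPM, with medians 3.16-fold apart. For comparison, the MCM7 medians were 3.42-fold apart. PIK3CD had 7.51, 8.50 and 6.82 CPM against 14.5 to 19.1 CPM, 2.26-fold apart by medians, and PIK3CA 14.4, 13.7 and 14.9 CPM against 17.2 to 22.3 CPM, 1.32-fold apart.

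PIK3R1 was the member that lay higher, at 28.6, 28.0 and 30.8 CPM against 21.3 to 26.4 CPM, 1.21-fold by medians. PIK3CB had 43.9, 44.0 and 51.1 CPM against 38.0 to 48.3 CPM. The class IB genes were not detectable at this depth in most A549 libraries. PIK3CG had 0 counts in all 12, which allows up to 0.128 to 0.167 CPM per library, PIK3R5 had 7 counts and PIK3R6 7 counts in all 12 libraries together. The increase of PIK3R6 seen in A375 could therefore not be looked for in A549.

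The make-up of the family in A549 is given in the same way. In the 9 libraries with high MCM7, PIK3R2 had 34.0% to 41.3% of the 9-gene total per length and PIK3CB 22.7% to 28.9%. In the 3 others PIK3R2 had 11.9% to 16.0% and PIK3CB 41.9% to 46.6%. PIK3R1 had 52.6% to 59.5% of the regulatory transcripts in these 3 libraries and 17.1% to 23.6% in the 9 others, and PIK3R2 34.6% to 42.4% and 68.3% to 75.8%. PIK3CD had 11.8% to 16.0% of the catalytic transcripts in the 3 libraries and 21.9% to 30.9% in the 9 others. The ratio of regulatory to catalytic class IA transcripts was 0.609 in shMCM7 Dox 3, 0.569 in shMCM7 noDox 2 and 0.525 in parental noDox 2, and 0.988 to 1.28 in the others. The catalytic sum was also lower in the 3 libraries, 8.30 to 9.16 against 9.53 to 10.5 CPM per kilobase.

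Of the other genes of the pathway in A549, 2 of 13 receptors and adaptors lay below and 5 above in the 3 low-MCM7 libraries, 0 and 2 of 10 phosphatases and inhibitors, 5 and 5 of 23 downstream genes, and 0 and 2 of 4 class II and III genes. These counts are to be read against the 19.2% of all genes that lay below and the 19.8% that lay above, and the genes named next are given as values only. IRS1 (91.7 to 113 CPM against 62.5 to 80.7 CPM), IRS2 (23.1 to 27.7 against 14.0 to 20.7 CPM) and GSK3B (118 to 131 against 91.5 to 109 CPM) lay above, and PIK3AP1 (2.91 to 3.38 against 5.06 to 6.85 CPM) lay below. AKT1 lay below, at 132 to 158 CPM against 163 to 210 CPM. ERBB2, at 56.0 to 67.4 CPM against 63.5 to 76.6 CPM, overlapped, as did AKT2, at 185 to 208 CPM against 173 to 237 CPM.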

How the data were processed

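Total RNA of 24 libraries was sequenced by the authors. Per the labels (submitters' processing notes), bcl2fastq 2.19, Trimmomatic, STAR 2.7.1, featureCounts and edgeR were used with genome build GRCh38.p10. The annotation release and counting settings are not given in the sources used here. The authors deposited whole-number counts per gene and library, not normalized, by Ensembl identifier, of which 21349 of 21386 were matched to GENCODE 29 (GRCh38) for names, positions and exon lengths. Groups come from the labels.

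Counts were tested in R 4.3.3 with edgeR 4.0.16 (TMM, filterByExpr, glmQLFit, glmQLFTest) on the libraries of each comparison. CPM were scaled by TMM over the 12 libraries of a line. Per-length levels were CPM divided by the exon union in kilobases. Correlations used log2 CPM with a prior count of 2. Shares and ratios were compared with exact permutation tests (scipy 1.17.1, Python 3.11.15). A call needed a fold change of 1.5, p under 0.01 and FDR under 0.05. Alternatives were DESeq2's size factors, the Wald test of DESeq2 1.42.0, no filter, at least 10 counts in every library, all 12 libraries of the line in the fit, the replicate number as a block, each library left out, and for shares no division by length or the longest transcript. The code was tested on simulated data.

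The members, the pathway and marker lists and the tests were chosen with earlier results of these data known. Genes named are the members, MCM7, pathway genes called in A375 shMCM7 cells, PIK3IP1, INPP4B, AKT1, AKT2 and PIK3C3, and the 5 genes most similar to PIK3R2 and to PIK3R3. IFI30 and the overlapping genes were added after their values were seen. Some genes of the pathway and marker lists are not reported here. Replicate numbers were taken to pair libraries where every pair correlated above 0.1, which held for shMCM7 against parental A375 cells without Dox (r = 0.295, 0.216 and 0.315). In the other comparisons at least 1 pair was lower. For the comparison without Dox, the main values nevertheless come from the fit without the block, which leaves this pairing out. The blocked fit is the paired one, and 0 members were called in either.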

Additional observations from a re-analysis of the deposited data

Results flagged for a closer look

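The Dox effect on 3 class I genes differed between shMCM7 and parental A375 cells in a direct test of that difference (edgeR, Benjamini-Hochberg FDR of 0.000109, 0.000853 and 0.0146, respectively, 3 libraries per group). It was -1.61 on the log2 scale for PIK3R2, -1.44 for PIK3R3 and 1.55 for PIK3R6. In each of these genes, the 3 shMCM7 Dox libraries lay outside the range of the other 9 A375 libraries. This also held for PIK3CB and PIK3CD, which were not called, and the share of all genes that separate in this way was not counted. The separation rests on the same values as the calls and is no further evidence for them. For PIK3R6 the 3 libraries held 155 to 307 counts and the other 9 held 35 to 138.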

How the results depend on the processing

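The number of members called did not change under any alternative in 6 of the 7 comparisons. Between A375 shMCM7 cells with and without Dox it was 3 in all fits on the full set of libraries and 2 to 3 with a library left out, since PIK3R6 lost its call in 4 of 6 such fits. The share of PIK3R2 among regulatory transcripts differed by -18.9 percentage points without division by length, and by -16.1 to -12.9 with a library left out. The log2 ratio of regulatory to catalytic transcripts lay between -1.48 and -1.10 with a library left out. The A549 counts by MCM7 level stayed at 4 below and 1 above.

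The sign turned only for values that were not called. With a library left out, ranges were -0.10 to 0.00019 for PIK3R1 in parental A375 cells, -0.11 to 0.019 for PIK3CA in the difference of the Dox effects, and -0.041 to 0.031 for PIK3CB and -0.15 to 0.60 for PIK3R6 between shMCM7 and parental A375 cells without Dox. In the labelled A549 shMCM7 libraries they were -0.14 to 0.18 for PIK3CA, -0.25 to 0.27 for PIK3CD, -0.11 to 0.063 for PIK3R1, -0.54 to 0.31 for PIK3R2 and -0.48 to 0.30 for PIK3R3, and in the parental ones -0.071 to 0.082 for PIK3CA. Without a filter PIK3CD was at 0.0022 in the labelled A549 shMCM7 comparison. AKT2 in A375 was at 0.0025 with DESeq2's size factors or Wald test, at 4.23e-05 with at least 10 counts in every library, at 0.00029 with all 12 libraries in the fit, and at -0.036 to 0.034 with a library left out. The causes were not tested.

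With the replicate number as a block, 3 members were called between A375 shMCM7 cells with and without Dox, as without it. The same-numbered pairs there had r of 0.236, 0.0725 and 0.211. Since 1 pair lay under 0.1, the numbers were not taken to pair these libraries, which does not show that they are unpaired. Over all genes the block called 969 up and 1091 down, instead of 897 and 1037. The block changed no other count of members called. With 3 against 3 libraries, the permutation test cannot go below 0.1. In A549, 3 counts stand for 0.128 to 0.167 CPM, which leaves the class IB genes unmeasured.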
